A study of Mus musculus with 8 samples.

Results

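Heat shock proteins and their partner chaperones were followed in adult mouse testis by bulk RNA sequencing, in 4 libraries labelled Ssty2-/- (knockout) and 4 labelled WT (wild type). The genes were taken by name from the table of counts: protein-coding genes whose symbol starts with Hspa, Hspb, Hspd, Hspe, Hsph, Hsp90, Dnaja, Dnajb or Dnajc, or is Cct with a digit, with at least 20 counts over the 8 libraries. Of 56748 genes in the table, 81 carried such a symbol and type and 80 had enough counts; Hspb3 had 13 counts and was left out. The annotation used for names lists Cct6a as a processed transcript, so it is no member, and it appears below only as the partner of Cct6b. Hspbp1 and Hspbap1 are members by their names although they are not small heat shock proteins. Ssty2 is a multicopy gene of the Y long arm. The labels give no strain, no exact age and no account of how the deletion was made, and whether each library is a different animal is not stated. The p-values therefore rest on library-to-library spread, which may be technical in part. The gene entry taken for Ssty2 had no count in the knockout libraries, where 3 counts over the group would be 0.0383 CPM. In wild type it had 2.88, 3.41, 3.23 and 2.16 CPM. Other copies of this multicopy gene, under other gene models, were not looked up. CPM are counts per 1000000 counts, scaled here by the trimmed mean of M-values, and totals ran from 18036708 to 24415587 counts per library.

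Chaperones help proteins fold, unfold or assemble. HSP70 proteins (Hspa genes) bind and release unfolded stretches in a cycle driven by ATP; J proteins (Dnaja, Dnajb and Dnajc) deliver clients and start the hydrolysis, and nucleotide exchange factors such as Hsph1 and the Hspa4 group reset the cycle. HSP90 proteins mature kinases and receptors, the CCT ring folds actin and tubulin, Hspd1 with its lid Hspe1 folds proteins in mitochondria, and small heat shock proteins (Hspb) hold denatured proteins without ATP. The testis is known for forms of its own or forms prominent in its germ cells, not all of them confined to it. In the HSP70 group these are Hspa2, Hspa1l and Hspa4l. The J proteins are Dnajb3, Dnajb7, Dnajb8, Dnajb13, Dnajc5b and Dnajc5g, the small heat shock protein is Hspb9 and the chaperonin subunit is Cct6b. These 11 genes are called testis forms below, and the other 69 members general forms.

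Some general forms carry, near an annotated start of the gene, short sequences known to bind stress-responsive factors. They are shown because the genes that carry them, among them 3 of the endoplasmic reticulum (ER) and the mitochondrial pair Hspd1 and Hspe1, are described further on. RefSeq promoter windows (250 bases before to 50 after a start, build GRCm38.p6) were found for 65 of the 80 members, in 84 windows. The ER stress response element, searched on both strands as CCAAT and CCACG with 9 bases of any kind between them, matched in 39 of 32851 windows, or 0.119%, and among the members in those of Hspa5, Hsp90b1 and Dnajc3. The 3 matching stretches are shown 5′ to 3′ on the strand of the gene, with the matched letters in capitals:
Hspa5, chr2:34772020-34772049, plus strand: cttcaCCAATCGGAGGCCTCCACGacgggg
Hsp90b1, chr10:86705510-86705694, minus strand: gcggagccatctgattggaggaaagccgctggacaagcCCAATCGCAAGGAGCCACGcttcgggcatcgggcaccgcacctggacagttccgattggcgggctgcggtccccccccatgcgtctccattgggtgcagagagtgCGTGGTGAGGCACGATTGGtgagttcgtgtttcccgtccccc
Dnajc3, chr14:118937767-118937905, plus strand: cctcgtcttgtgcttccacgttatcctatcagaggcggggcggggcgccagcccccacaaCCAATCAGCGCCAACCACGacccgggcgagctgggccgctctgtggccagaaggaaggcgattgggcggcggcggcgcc
The Hsp90b1 stretch holds 2 matches, of which the second lies on the opposite strand. A heat shock element, searched on both strands as GAA, TTC and GAA with 2 bases of any kind between units, matched in 198 windows, or 0.603%, and in those of Hspd1, Hspe1, Hsph1 and Dnajb6. Hspd1 and Hspe1 stand head to head on chromosome 1, and a single stretch with 2 overlapping matches lies in the windows of both. It is shown beside that of Dnajb6, again with the matches in capitals:
Hspd1 and Hspe1, chr1:55088053-55088082, minus strand: ggggccTTCCGGAAGGTTCTAGAAcggacc
Dnajb6, chr5:29735844-29735873, plus strand: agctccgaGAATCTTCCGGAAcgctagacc
In Hsph1 the matches lay after the start and are not shown. The printed matches of Hspa5, Dnajb6 and the Hspd1 and Hspe1 pair overlap an annotated exon, so only 30 bases of each are given. The cAMP response element, searched as TGACGTCA, matched in 588 windows, or 1.79%, and among the members in that of Dnajc27 alone. A match describes these letters in these windows and does not show that a factor binds there. Nor does a missing match show that a member lacks such an element. Each search used a fixed pattern in a short window, and only 65 of the 80 members had a window.

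Of the 80 members, 79 had enough counts to be tested (Hspb2 did not), and 32 were called higher and 23 lower in knockout at an adjusted p under 0.05 (edgeR's quasi-likelihood test; each log2 fold change below is given ± its standard error, SE, with n = 4 libraries per group). Over all 21952 tested genes, 26.2% were called higher and 27.4% lower, or 53.5% in either direction, and the median log2 fold change was -0.0089; over the 79 members it was 0.029. All 11 testis forms were called higher, with a median log2 fold change of 0.33. These 11 were chosen with earlier results of these data known, so the count describes them and is no test. Hsp90aa1, which germ cells express strongly, was counted as a general form and was not called (log2 fold change -0.037). Of the 68 tested general forms, 21 were called higher, 23 lower and 24 neither, with a median of -0.04. Scaling by library totals, which moves the median of all genes to -0.15, gave 15 members higher and 35 lower, against 17.5% and 37.6% of all genes. With that scaling and not with the main one, the members called lower were Hsp90aa1, Hspa13, Hsph1, Hspb7, Dnaja1, Dnaja2, Dnajb9, Dnajb11, Dnajc1, Dnajc10, Dnajc17 and Cct3. With that scaling 8 of the 11 testis forms were still called higher, and 7 general forms were higher and 35 lower.

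**Figure D1:**
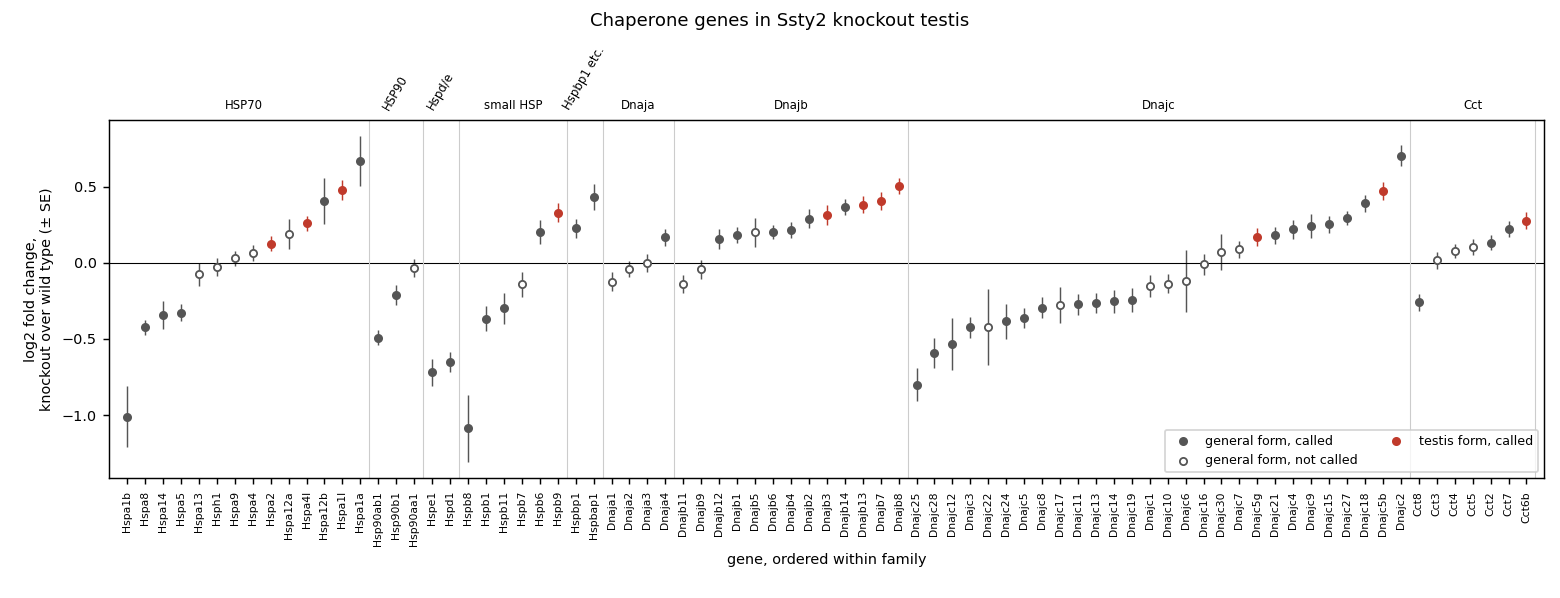
Log2 fold change of knockout over wild type for the 79 tested members (y axis, with its standard error, 4 libraries per group), ordered by size within each family along the x axis. Filled points were called at an adjusted p under 0.05, and red points are the 11 testis forms; all 11 lie above 0, while general forms lie on both sides, from -1.09 (Hspb8) to 0.70 (Dnajc2).

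Markers of the cells that make up the testis were counted in the same libraries. The counts below stand beside 26.2% of all tested genes called higher and 27.4% called lower. All 15 round spermatid markers and all 12 elongating spermatid markers were called higher, with round spermatid sums from 3239.5 to 3632 CPM in wild type and from 5129.6 to 5236 CPM in knockout. The elongating spermatid sums ran from 17496 to 21118 CPM in wild type and from 26798 to 30252 CPM in knockout. Of 15 Sertoli cell markers 14 were lower (from 2003 to 2239.9 CPM in wild type and from 1316 to 1492 CPM in knockout). All 12 Leydig cell markers were lower (from 2487 to 2770.2 CPM in wild type and from 1297 to 1437 CPM in knockout). Of 15 spermatogonial markers 11 were lower and 1 was higher (from 1004 to 1206 CPM in wild type and from 879 to 956 CPM in knockout). Of 15 spermatocyte markers 2 were higher and 8 lower (from 3752 to 3839 CPM in wild type and from 3791 to 3909.6 CPM in knockout). Among the remaining lists, 6 of 8 peritubular myoid markers were lower and 1 higher (from 337 to 375 CPM in wild type and from 352 to 392 CPM in knockout), and 3 of 8 endothelial markers were lower (from 40.7 to 47.4 CPM in wild type and from 35.4 to 42.4 CPM in knockout). Likewise 6 of 9 macrophage markers were lower and 1 higher (from 369 to 409 CPM in wild type and from 432 to 510.2 CPM in knockout). The summed myoid and macrophage levels are led by their only higher genes, Actg2 (from 186 ± 17.5 to 257 ± 10.7 CPM) and Aif1 (from 258 ± 19.6 to 369 ± 27.0 CPM). The count of lower endothelial markers is not far from the share over all tested genes. No marker of these lists was at 0 in all libraries. In whole testis, fewer cells of a type and less RNA per cell cannot be told apart, and the part of these markers in the results below was not tested.

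The testis forms of the HSP70 group were higher in knockout. Hspa1l, a testis gene beside Hspa1a and Hspa1b on chromosome 17, had 210.1, 196, 171 and 179 CPM in knockout, against 146, 130.1, 133 and 134 CPM in wild type (4 libraries each, in the order of their replicate numbers, here and below). The groups did not overlap, and the log2 fold change was 0.48 (SE 0.0655, adjusted p = 1.75e-05). An antisense gene model, Gm10501, overlaps Hspa1l and shares sequence with it; it had 29 counts over all 8 libraries against 26826 for Hspa1l. Hspa4l, an exchange factor of the Hspa4 group expressed in male germ cells, had 1009, 1129, 1075 and 1147 CPM in knockout, against 877, 899, 947 and 923 CPM in wild type. All knockout libraries lay above all wild-type libraries (log2 fold change 0.26 ± 0.0521, adjusted p = 0.000582). With library totals it was no longer called (log2 fold change 0.12, adjusted p = 0.0573).

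Hspa2, the HSP70 of spermatocytes and spermatids that male mice need for meiosis, had 1122, 1120.4, 1200.0 and 1074 CPM in knockout, against 1059, 1021, 1010.3 and 1052 CPM in wild type. The knockout values lay just above those of wild type, at 109% of its mean. The call was weak (log2 fold change 0.12 ± 0.0487, adjusted p = 0.0400) and ended in 7 of the 8 fits that left out 1 library (adjusted p from 0.0523 to 0.136 there), that is without any library except knockout replicate 4. It was also lost without the filter on low counts, and under library totals the direction turned (log2 fold change -0.017, adjusted p = 0.777).

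Among the J proteins of the testis, Dnajb8 had the largest fold change. Dnajb8, a suppressor of aggregation, stood at 116, 119, 116 and 114 CPM in knockout, against 79.1, 79.4, 86.6 and 82.2 CPM in wild type. The knockout mean was 142% of wild type and the groups were far apart compared with their spread (log2 fold change 0.51 ± 0.0534, adjusted p = 1.24e-06). Dnajb7 had 158, 183, 161 and 165 CPM in knockout, against 124, 119, 134 and 127 CPM in wild type, again without overlap (log2 fold change 0.40 ± 0.0598, adjusted p = 3.60e-05). Dnajb13, a J protein built into the radial spokes of the sperm tail, had 264, 254, 271 and 264 CPM in knockout, against 211, 181, 208 and 208 CPM in wild type. The groups did not overlap (log2 fold change 0.38 ± 0.0563, adjusted p = 3.49e-05), and wild-type replicate 2 lay below the other wild-type libraries. Dnajb3, a J protein of spermatids and the J protein with the highest level per kilobase of exon, went from 471 ± 45.0 to 587 ± 36.3 CPM; its libraries read 637, 574, 552 and 585 in knockout and 519, 417, 454 and 496 in wild type. The lowest knockout library lay above the highest wild-type library (log2 fold change 0.32 ± 0.0662, adjusted p = 0.000786).

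Dnajc5b and Dnajc5g encode testis cysteine string proteins, relatives of the vesicle chaperone Dnajc5. Dnajc5b had 268, 281, 240.2 and 263 CPM in knockout, against 179.9, 181, 203 and 194 CPM in wild type. It rose without overlap (log2 fold change 0.47 ± 0.0592, adjusted p = 6.96e-06). Dnajc5g had 146, 154, 129.9 and 138 CPM in knockout, against 125, 125, 133 and 121 CPM in wild type. Here the groups overlapped, since knockout replicate 3 lay below wild-type replicate 3, and the smaller rise (log2 fold change 0.17 ± 0.0594, adjusted p = 0.0235) was lost without knockout replicate 2, wild-type replicate 1, wild-type replicate 2 or wild-type replicate 4 (adjusted p from 0.0551 to 0.0827) and under library totals (log2 fold change 0.027, adjusted p = 0.711). Hspb9, the small heat shock protein of the testis, had 683, 657, 594 and 668 CPM in knockout, against 539.9, 459, 529 and 543 CPM in wild type. It rose without overlap (log2 fold change 0.33 ± 0.0616, adjusted p = 0.000312). Cct6b, the testis form of the sixth chaperonin subunit, had 324, 373, 328 and 335 CPM in knockout, against 287, 276, 271 and 288 CPM in wild type, and all knockout libraries exceeded all wild-type ones (log2 fold change 0.28 ± 0.0545, adjusted p = 0.000475). To show where reads could be shared, each transcript was split into words of 31 bases. Of these words Hspb9, Cct6b, Dnajb3 and Dnajb7 had none in common with other genes. Hspa1l shares 71.7% (most with Gm10501), Dnajb8 36.0% (most with 1700031F10Rik) and Dnajc5b 14.8%.

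**Figure D2:**
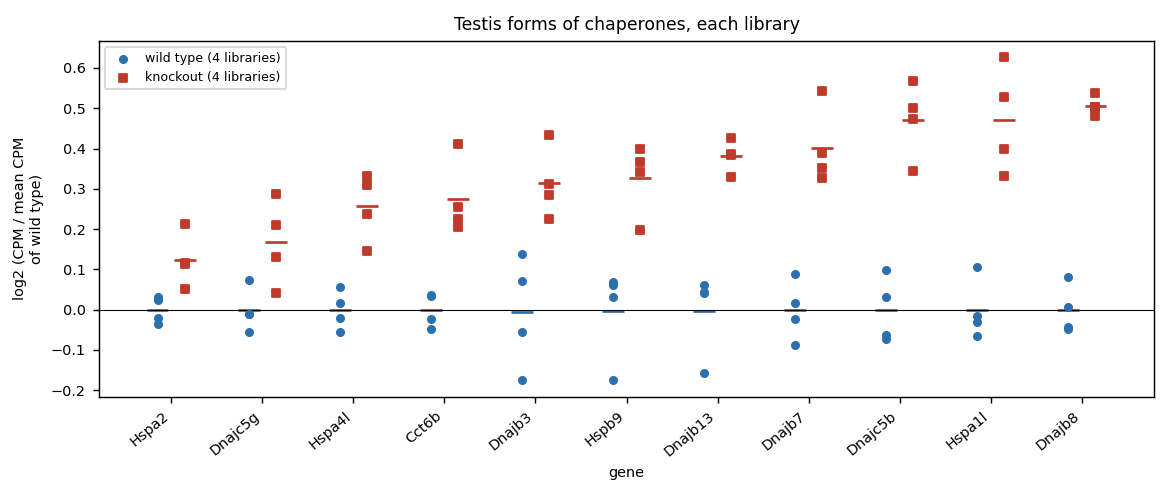
Level of each testis form in each library, as log2 of its CPM over the mean CPM of wild type (y axis), for 11 genes ordered by fold change (x axis); short bars are group means. Blue circles are wild-type and red squares knockout libraries: in 10 of the 11 genes every knockout library lies above every wild-type library, and in Dnajc5g the groups overlap.

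That 10 of the 11 testis forms had no overlap with knockout above compares with 22.7% of all tested genes in that direction. Since the list was chosen with earlier results of these data known, this count is a description and no test. Per kilobase of exon, a scale on which genes can be compared, testis forms were among the most abundant chaperone messages of wild-type testis. Hspb9 stood first at 713 ± 54.9 CPM per kilobase (mean ± SD, n = 4), followed by Hsp90aa1 at 589 ± 36.7, Dnajb3 at 449 ± 42.8 and Hspa2 at 392 ± 8.96. The next were Hspa5 at 165 ± 11.1, Dnajc5b at 150.4 ± 8.57 and Cct6b at 150.0 ± 4.41 CPM per kilobase, and the last 2 differed by less than their SD. Exon lengths were taken over all annotated transcripts of a gene, so genes with long rare exons read low on this scale.

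Testis and general forms of one kind were compared within 8 pairs of genes, by the log2 ratio of their counts in each library. This ratio does not depend on scaling. A ninth pair set 2 general forms, Hsp90aa1 and Hsp90ab1, against each other. All knockout libraries had a higher ratio than all wild-type libraries in 7 of the 8 testis and general pairs and in the HSP90 pair. For each the two-sided exact permutation test gave p = 0.0286, the smallest that 4 against 4 can give (adjusted over the 9 pairs p = 0.0321). The testis forms were chosen with earlier results of these data known, so these p-values describe the listed pairs and are no independent test. How many arbitrary gene pairs would separate in this way was not computed. Of all tested single genes, 22.7% lay above wild type without overlap and 24.0% below. Hspa8 and Dnajc5 each stand in more than 1 pair, so the pairs are not independent. The shift was largest for Hspa1l against Hspa8, the constitutive HSP70, for which the log2 ratio was 0.072, -0.062, -0.26 and -0.22 in the knockout libraries and -0.89, -1.16, -0.99 and -1.02 in wild type. The ratio changed by 1.86-fold, with no knockout library near the wild-type range. The ratio of Dnajc5b to Dnajc5 went from 2.06 ± 0.144 to 2.89 ± 0.110 (mean ± SD, n = 4), a change of 1.78-fold, and that of Dnajc5g to Dnajc5 rose by 0.53 on the log2 scale. For Hspa2 to Hspa8 the difference was 0.55, for Cct6b to Cct6a 0.50, for Dnajb13 to Dnajb1 0.20 and for Hspa4l to Hspa4 0.19.

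The pairs differ in which side moved. Hspa8 and Dnajc5 were lower in knockout, Hspa4 was not called (log2 fold change 0.064), and Dnajb1 and Dnajb6 were themselves higher. For Dnajb3 against Dnajb6 the ratios overlapped, 0.74, 0.48, 0.53 and 0.55 in knockout and 0.60, 0.29, 0.42 and 0.52 in wild type, and the difference of 0.12 did not pass (exact permutation p = 0.257, also after adjustment). Hsp90aa1, the inducible cytosolic HSP90 that germ cells express strongly, was set against the constitutive Hsp90ab1, and the log2 ratio went from 2.75 ± 0.0924 to 3.20 ± 0.123, with a difference of 0.45.

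**Figure D3:**
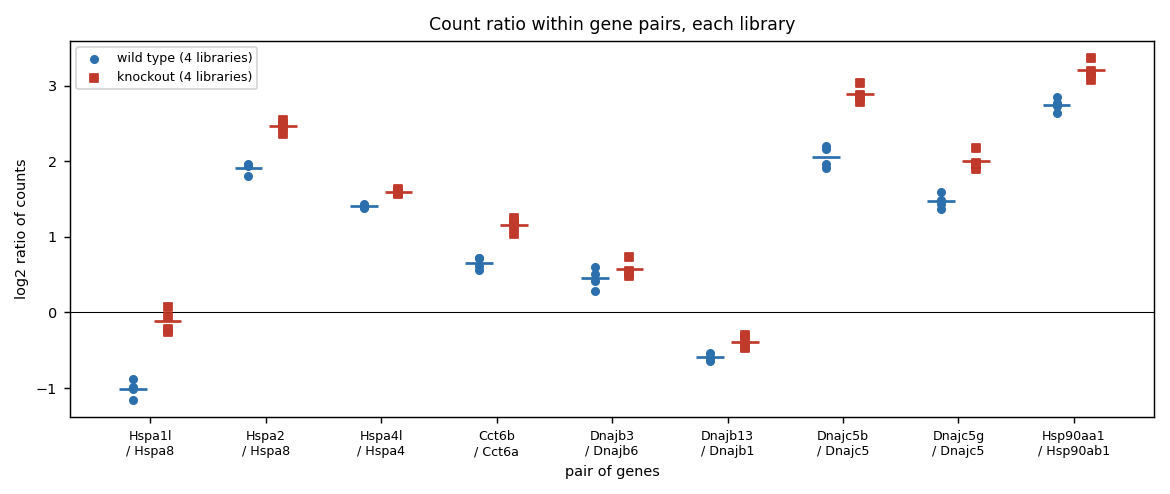
Log2 ratio of the counts of the first gene to those of the second (y axis) in each library, for 9 pairs (x axis); blue circles are wild-type and red squares knockout libraries, and short bars are group means. Red squares lie above all blue circles in 8 pairs and overlap them for Dnajb3 over Dnajb6.

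Among the general HSP70 genes, Hspa8, which folds new proteins and uncoats clathrin vesicles, had 199.9, 205, 205 and 209 CPM in knockout, against 270.3, 291, 264 and 272 CPM in wild type. The groups were well apart, with knockout at 74.5% of wild type (log2 fold change -0.42 ± 0.0497, adjusted p = 3.54e-06). Of the 31-base words of Hspa8, 44.8% occur in transcripts of other genes, most of all in the model Gm15459, and how reads shared between copies were counted is not stated. Hspa4, the general exchange factor, had 339.7, 378, 352 and 369.9 CPM in knockout, against 333, 344, 359 and 341 CPM in wild type. Hsph1, a related exchange factor, had 63.4, 59.5, 60.2 and 63.5 CPM in knockout, against 64.0, 60.5, 64.9 and 61.9 CPM in wild type. Both overlapped between groups and neither was called (adjusted p = 0.308 and 0.704). Hspa14, which works at the ribosome, had 15.6, 15.7, 16.7 and 16.1 CPM in knockout, against 18.3, 23.9, 20.02 and 18.9 CPM in wild type. It fell without overlap (log2 fold change -0.34 ± 0.0924, adjusted p = 0.00517), while Dnajc2, the J protein with which it forms the ribosome-associated complex, rose, as given below.

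The inducible HSP70 genes Hspa1a and Hspa1b, nearly identical in their coding sequence, went in opposite directions at low levels. Hspa1a had 4.08, 3.24, 3.93 and 4.07 CPM in knockout, against 2.88, 2.14, 2.10 and 2.55 CPM in wild type. Hspa1b had 3.01, 2.39, 1.70 and 1.40 CPM in knockout, against 4.68, 4.16, 4.09 and 4.28 CPM in wild type. Hspa1a was higher (log2 fold change 0.67 ± 0.166, adjusted p = 0.00293) and Hspa1b lower (-1.01 ± 0.200, adjusted p = 0.000487), each without overlap. They share 70.1% and 68.1% of their words with other genes, so their separate counts are uncertain. Summed, they gave 7.09, 5.63, 5.63 and 5.47 CPM in knockout and 7.57, 6.30, 6.19 and 6.83 CPM in wild type, groups that overlapped (log2 difference -0.18, exact permutation p = 0.171). Hspa12b, an atypical HSP70 of endothelium, had 8.91, 6.01, 8.99 and 8.09 CPM in knockout, against 5.56, 5.16, 6.04 and 7.36 CPM in wild type. It overlapped between groups, and its call (log2 fold change 0.41 ± 0.1504, adjusted p = 0.0310) ended in 6 of the 8 fits that left out 1 library (adjusted p from 0.0528 to 0.105 there), that is in all but those without knockout replicate 2 or wild-type replicate 4. With library totals it was not called either. Hspa12a (0.19), Hspa13 (-0.077) and the mitochondrial Hspa9 (0.029) were not called, although Hspa12a was without knockout replicate 3 (adjusted p = 0.0105).

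Of the HSP90 genes, Hsp90aa1 was not called: it had 2060.4, 2441, 2238 and 2284 CPM in knockout, against 2118, 2447, 2392 and 2298 CPM in wild type, with full overlap (log2 fold change -0.037, adjusted p = 0.624). Hsp90ab1, the constitutive cytosolic form, fell, with 244, 236, 249.98 and 248 CPM in knockout, against 341, 367, 329.9 and 338 CPM in wild type. Its knockout libraries lay close together and far below wild type (log2 fold change -0.49 ± 0.0506, adjusted p = 9.61e-07). Of the words of Hsp90aa1, 51.5% occur in other genes, most in the model Gm12346, and of those of Hsp90ab1 13.2%, most in Gm6368. Of 14 cochaperones that steer HSP90, 1 was higher and 7 were lower, beside 26.2% and 27.4% of all tested genes. Fkbp6, an immunophilin of meiotic cells (-0.52), Chordc1 (-0.47) and Nudc (-0.31) fell, and Unc45a, a myosin chaperone, rose (0.29).

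The mitochondrial folding pair fell together. Hspd1, the ring-forming HSP60, had 43.2, 43.6, 45.7 and 49.0 CPM in knockout, against 70.9, 78.3, 68.9 and 66.6 CPM in wild type. Hspe1, its lid, had 16.5, 14.6, 14.8 and 15.3 CPM in knockout, against 29.5, 24.1, 24.1 and 23.0 CPM in wild type. Neither overlapped, and knockout was at 63.7% and 60.7% of wild type (log2 fold changes -0.65 ± 0.0678, adjusted p = 1.09e-06 and -0.72 ± 0.0907, adjusted p = 7.44e-06). These are the head-to-head genes whose shared stretch holds the paired heat shock element printed above; Hspd1 shares 53.1% of its words with other genes, most with Hspd1-ps3, and Hspe1 30.5%. Of the 8 members known as mitochondrial, 4 were lower (Hspd1, Hspe1, Dnajc11 and Dnajc19), 1 was higher (Dnajc15) and 3 were not called (Hspa9, Dnaja3 and Dnajc30); the share called in either direction is close to the 53.5% over all tested genes. The median was -0.12. With library totals Dnajc15 was not called. Of 8 further mitochondrial chaperone and protease genes, the protease genes Lonp1 (-0.57), Clpp (-0.56) and Afg3l2 (-0.31) fell, and Clpx (0.43), an unfoldase that works with Clpp, and Clpb (0.40), a disaggregase, rose.

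Among the members of the ER, the lumenal folding genes with the printed element were lower. Which ER genes outside the members hold the element was not examined. Hspa5, the ER HSP70 known as BiP, had 561, 587, 514 and 566 CPM in knockout, against 665, 768, 683 and 678 CPM in wild type. No knockout library reached the lowest wild-type library (log2 fold change -0.33 ± 0.0576, adjusted p = 0.000178). Hsp90b1, the ER HSP90, had 442, 510.1, 446 and 476 CPM in knockout, against 481, 605, 551 and 532 CPM in wild type. Here the groups overlapped, since knockout replicate 2 lay above wild-type replicate 1. Its call (log2 fold change -0.21 ± 0.0666, adjusted p = 0.0140) was lost without wild-type replicate 2 (adjusted p = 0.0517), the library with its highest value. Dnajc3, a lumenal J protein that serves BiP, had 80.3, 94.9, 95.7 and 98.6 CPM in knockout, against 119, 133, 123 and 121 CPM in wild type, without overlap (log2 fold change -0.42 ± 0.0664, adjusted p = 6.07e-05). Hspa5 and Dnajc3 lie outside the rule for which genes are given by library and were added because their windows hold the element.

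Of the 11 members listed for the ER, a list that may leave out others, these 3 were lower and 3 were higher. Over all tested genes 27.4% were lower and 26.2% higher. The other 5 were not called (Hspa13, Dnajb9, Dnajb11, Dnajc1 and Dnajc10). With library totals all 5 of these were called lower and Dnajb12 was not called, which gives 2 higher and 8 lower, beside 17.5% and 37.6% of all genes. The 3 that were higher were Dnajb12 (0.16), Dnajb14 (0.37) and Dnajc18 (0.39). They are J proteins anchored in the ER membrane that face the cytosol, a feature noticed after the values were seen. Members outside the list were not checked for this feature, so it is not shown to be particular to the higher genes. The Dnajb12 call (adjusted p = 0.0496) ended in 6 of the 8 fits that left out 1 library (adjusted p from 0.0878 to 0.127 there), that is in all but those without knockout replicate 2 or wild-type replicate 1, and with library totals, with DESeq2 and without the filter. Of 13 ER lectin and disulfide chaperone genes, 4 were higher and 6 lower, beside 26.2% and 27.4% of all tested genes. The testis genes Clgn, a calnexin relative, and Pdilt, a disulfide isomerase relative, rose by 0.32 and 0.43 on the log2 scale, and Herpud1 by 0.43; the general isomerases P4hb (-0.68), Pdia4 (-0.63) and Pdia6 (-0.23) fell.

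**Figure D4:**
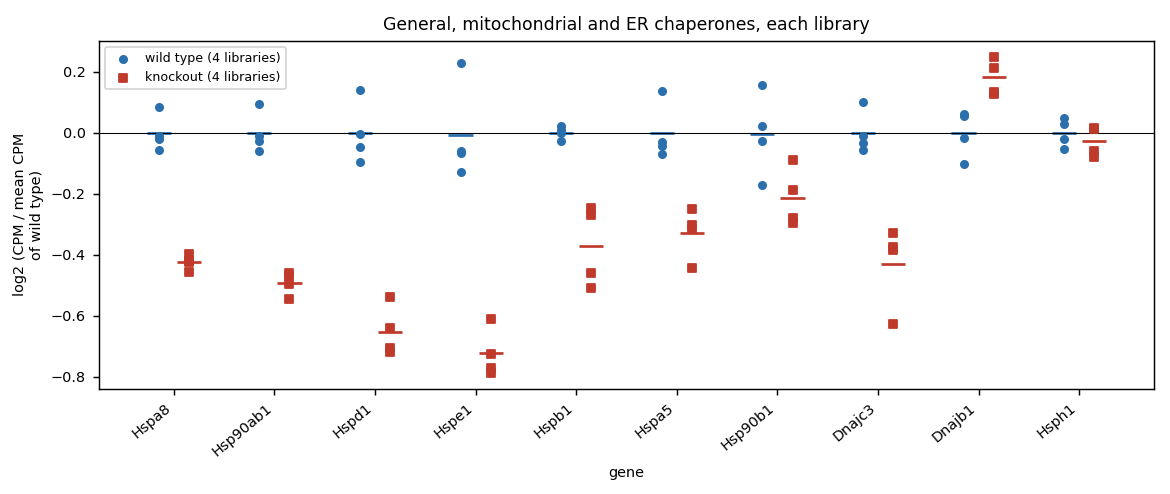
Level of 10 general forms in each library, as log2 of CPM over the mean CPM of wild type (y axis), from cytosolic through mitochondrial to ER genes and 2 stress-inducible partners (x axis); short bars are group means. Red squares (knockout) lie below all blue circles (wild type) for Hspa8, Hsp90ab1, Hspd1, Hspe1, Hspb1, Hspa5 and Dnajc3, and above them for Dnajb1. For Hsp90b1 only knockout replicate 2 lies within the wild-type range, and for Hsph1 the groups overlap.

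Of the 5 tested genes numbered in the Hspb series other than Hspb9, 3 were lower and 1 was higher, beside 27.4% and 26.2% of all tested genes. With library totals 4 were lower and none was higher. Both counts of lower genes include Hspb11, which belongs here by its name only. Hspb1, an actin-protecting form also known as HSP25, had 18.7, 16.4, 19.0 and 15.8 CPM in knockout, against 22.1, 22.7, 22.9 and 22.5 CPM in wild type (log2 fold change -0.37 ± 0.0816, adjusted p = 0.00129). Hspb8, which works with Bag3 in selective autophagy, had 1.99, 1.17, 2.27 and 1.40 CPM in knockout, against 4.32, 2.93, 3.12 and 4.28 CPM in wild type (log2 fold change -1.09 ± 0.221, adjusted p = 0.000593). Neither overlapped, and Hspb8, at few CPM, showed the largest fall of all members. Other genes, chiefly the pseudogene Hsp25-ps1, hold 55.4% of the words of Hspb1. Hspb11, a subunit of the intraflagellar transport machinery despite its name, had 9.66, 8.54, 9.13 and 8.03 CPM in knockout, against 10.3, 11.5, 10.7 and 10.9 CPM in wild type. Its fall (log2 fold change -0.30 ± 0.101, adjusted p = 0.0204) was lost without knockout replicate 4 or wild-type replicate 2 (adjusted p from 0.0524 to 0.0600).

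Hspb6, a muscle form also known as HSP20, was called higher at log2 fold change 0.20 ± 0.0818, adjusted p = 0.0466, with overlapping groups (28.8, 28.0, 27.2 and 25.1 CPM in knockout, against 26.2, 22.0, 25.0 and 21.6 CPM in wild type). That call ended in 6 of the 8 fits that left out 1 library (adjusted p from 0.0546 to 0.154 there), that is in all but those without knockout replicate 4 or wild-type replicate 1, and with library totals, with DESeq2 and without the filter. Hspb7 was not called (-0.14). The genes Hspbp1, an exchange factor of HSP70, and Hspbap1 were higher. Hspbap1 had 18.9, 17.3, 18.6 and 18.9 CPM in knockout, against 14.1, 13.0, 12.9 and 14.6 CPM in wild type. Hspbp1 had 57.7, 55.2, 53.6 and 53.4 CPM in knockout, against 48.3, 44.4, 45.6 and 49.6 CPM in wild type. Both lay above wild type in every library, by 0.43 and 0.23 on the log2 scale (adjusted p = 0.000413 and 0.00560); with library totals Hspbp1 was not called.

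Of the 4 Dnaja genes, the closest relatives of bacterial DnaJ, only Dnaja4 was called. It had 247, 217, 223 and 228 CPM in knockout, against 213, 190.3, 201 and 210.1 CPM in wild type, a small rise without overlap (log2 fold change 0.17 ± 0.0564, adjusted p = 0.0192) that ended without knockout replicate 1, wild-type replicate 2 or wild-type replicate 3 (adjusted p from 0.0599 to 0.0744) and with library totals. Dnaja1 (-0.12), Dnaja2 (-0.043) and the mitochondrial Dnaja3 (0.0012) were not called, but Dnaja1 was called lower without wild-type replicate 1 (adjusted p = 0.0109). Dnaja4 shares 43.3% of its words with other genes, chiefly Wdr61.

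In the Dnajb class, 10 of 13 genes were called higher and none lower, against 26.2% and 27.4% of all tested genes. Besides the 4 testis forms these were the general genes Dnajb14, Dnajb2, Dnajb4, Dnajb6, Dnajb1 and Dnajb12, by 0.37 to 0.16 on the log2 scale. Dnajb1, the main stress-inducible partner of cytosolic HSP70, had 361, 352, 333 and 332 CPM in knockout, against 316, 283, 300.1 and 317 CPM in wild type. All knockout libraries lay above wild type (log2 fold change 0.18 ± 0.0533, adjusted p = 0.00884). Dnajb6, which keeps glutamine-rich proteins from aggregating, had 382, 412, 383 and 399 CPM in knockout, against 342, 342, 339 and 347 CPM in wild type, with a similar shift (log2 fold change 0.20 ± 0.0471, adjusted p = 0.00183). Dnajb5 (0.20), Dnajb9 (-0.044) and Dnajb11 (-0.14) were not called, but Dnajb5 was called higher without wild-type replicate 1 (adjusted p = 0.0434) and Dnajb11 lower without knockout replicate 1 or wild-type replicate 3 (adjusted p from 0.0395 to 0.0472). With library totals Dnajb1 (log2 fold change 0.04, adjusted p = 0.507) and Dnajb6 (log2 fold change 0.06, adjusted p = 0.267) kept the direction but not the call, as did Dnajb4 and Dnajb12, and Dnajb9 and Dnajb11 were called lower.

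The Dnajc class, which unites proteins with a J domain and otherwise unlike parts, had 9 genes higher, 11 lower and 8 not called of 28, beside 26.2% higher and 27.4% lower over all tested genes. With library totals 4 were higher and 14 lower. Dnajc2, which acts on nascent chains at the ribosome, showed the largest rise of all members, with 291, 269.6, 311 and 318 CPM in knockout, against 172, 202, 190.0 and 166 CPM in wild type. The knockout mean was 163% of wild type (log2 fold change 0.70 ± 0.0684, adjusted p = 5.29e-07). Dnajc18, one of the ER membrane J proteins, had 131, 137, 141 and 133 CPM in knockout, against 103, 99.3, 109 and 102 CPM in wild type, again without overlap (log2 fold change 0.39 ± 0.0533, adjusted p = 1.69e-05). Dnajc27, a small GTPase with a J domain (0.29), Dnajc15, of the mitochondrial inner membrane (0.25), and Dnajc4 (0.22) rose less. Dnajc9, a histone chaperone (0.24, adjusted p = 0.0147), lost its call without knockout replicate 2 or wild-type replicate 4 (adjusted p from 0.0570 to 0.0615), and Dnajc21, a factor of ribosome assembly (0.18, adjusted p = 0.0140), without wild-type replicate 4 (adjusted p = 0.0546). With library totals Dnajc4, Dnajc9, Dnajc15 and Dnajc21 were not called.

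Among the Dnajc genes that fell, Dnajc25 had 7.89, 6.81, 7.53 and 7.57 CPM in knockout, against 11.7, 13.8, 14.5 and 11.8 CPM in wild type. The groups were far apart (log2 fold change -0.80 ± 0.109, adjusted p = 1.58e-05), although the model Gm20503 shares sequence with it. Dnajc28 had 30.8, 45.5, 34.9 and 32.9 CPM in knockout, against 57.2, 54.6, 52.5 and 53.3 CPM in wild type, and knockout replicate 2 came nearest to wild type without reaching it (log2 fold change -0.59 ± 0.0963, adjusted p = 8.67e-05). Dnajc12, a partner of the aromatic amino acid hydroxylases, had 3.65, 2.86, 2.84 and 2.62 CPM in knockout, against 4.48, 5.42, 3.70 and 3.75 CPM in wild type at low depth, and its fall (log2 fold change -0.53 ± 0.172, adjusted p = 0.0151) was lost without wild-type replicate 2 (adjusted p = 0.0638). Dnajc5, the general cysteine string protein, had 37.1, 34.0, 34.9 and 35.7 CPM in knockout, against 46.2, 48.3, 44.2 and 43.2 CPM in wild type. It fell without overlap (log2 fold change -0.36 ± 0.0651, adjusted p = 0.000224).

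Among the other falls were Dnajc24, of diphthamide synthesis (-0.38), Dnajc8, of the spliceosome (-0.29), Dnajc11, of the mitochondrial cristae (-0.27), Dnajc13, of endosomes (-0.26), Dnajc14 (-0.25) and Dnajc19, of mitochondrial import (-0.24). In Dnajc24 the groups overlapped. The Dnajc19 call was lost without wild-type replicate 4 (adjusted p = 0.0545). Not called were Dnajc1, Dnajc6, Dnajc7, Dnajc10, Dnajc16, Dnajc17, Dnajc22 and Dnajc30, between -0.42 and 0.088 on the log2 scale. Dnajc17 had no overlap between groups, although it was not called (adjusted p = 0.0621), and it was called lower without knockout replicate 3 (adjusted p = 0.0426). Dnajc10 was called lower without knockout replicate 2 (adjusted p = 0.0158).

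Of the 7 Cct members 3 were higher (Cct6b, Cct7 and Cct2), 1 was lower (Cct8) and 3 were not called: Cct3 (0.015), Cct4 (0.077) and Cct5 (0.10). The share called is near the 53.5% of all tested genes, and with library totals 1 was higher and 2 were lower. Cct7 had 687, 665, 621 and 634 CPM in knockout, against 597, 539.7, 534 and 568 CPM in wild type, a rise without overlap (log2 fold change 0.22 ± 0.0530, adjusted p = 0.00230) that was not called with library totals. Cct8 had 207, 223, 200.3 and 212 CPM in knockout, against 242, 272, 244 and 250.3 CPM in wild type, a fall without overlap (log2 fold change -0.26 ± 0.0549, adjusted p = 0.000863). Cct2 had 322, 323, 339.6 and 311 CPM in knockout, against 313, 285, 296 and 288 CPM in wild type, overlapping by a little. Its call (log2 fold change 0.13 ± 0.0509, adjusted p = 0.0367) ended in 6 of the 8 fits that left out 1 library (adjusted p from 0.0511 to 0.109 there), that is in all but those without knockout replicate 4 or wild-type replicate 1. It was also lost without the filter, and with library totals the value was -0.0087. Cct6a, the general counterpart of Cct6b, had 157, 156, 148 and 146 CPM in knockout, against 174, 188, 177 and 174 CPM in wild type. It fell without overlap (log2 fold change -0.23 ± 0.0514, adjusted p = 0.00136).

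Tcp1, the first subunit of the same ring, whose symbol lies outside the naming rule of the members, rose by 0.17 on the log2 scale (adjusted p = 0.00998). Of 10 genes that work with the ring, Tcp1 included, 3 were higher and 5 lower, beside 26.2% and 27.4% of all tested genes; with library totals none was higher and 6 were lower. The phosducin-like cofactors Pdcl3 (-0.87) and Pdcl (-0.51) and the prefoldin subunit gene Vbp1 (-0.50) fell. The prefoldin subunit gene Pfdn5 (0.20) and Txndc9 (0.15), a regulator of the ring, rose.

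Of 16 cochaperones of HSP70, 4 were higher and 4 lower, shares close to the 26.2% and 27.4% of all tested genes, with a median of -0.13. With library totals 3 were higher and 12 lower, beside 17.5% and 37.6%. Bag5 (0.36) and Bag1 (0.30), exchange factors that empty HSP70 of its nucleotide, and Sil1 (0.41), the exchange factor of BiP, rose. Bag2 (-0.65), the mitochondrial exchange factor Grpel2 (-0.44) and the ER chaperone Hyou1 (-0.20) fell. Of 7 heat shock factor genes and their binding partners, 5 were tested. Hsbp1, a small protein that binds HSF1 (0.28), and Hsf5, a factor of the testis (0.19), were higher, beside 26.2% of all tested genes. Hsf1 (0.064) and Hsf2 (0.19), the main regulators of heat shock genes, and Hsf2bp (-0.14) were not called. With library totals 1 of this list was higher and 1 lower, beside 17.5% and 37.6%.

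Of 10 members known to respond to heat, Hspa1a and Dnajb1 were higher, Hspa1b, Hspa8, Hspb1, Hspd1 and Hspe1 were lower, and Hsph1, Hsp90aa1 and Dnaja1 were not called, with a median log2 fold change of -0.25 beside -0.0089 over all tested genes. That is 2 higher and 5 lower of 10, beside 26.2% and 27.4% of all tested genes. With library totals 1 was higher and 8 lower, beside 17.5% and 37.6%. The separate calls of Hspa1a and Hspa1b are uncertain, since they share much of their sequence. Their summed CPM overlapped between groups (log2 difference -0.18, exact permutation p = 0.171). Hspa8 is counted here although it is the constitutive HSP70.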

How the data were processed

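RNA was measured in 8 libraries of adult testis. Per the labels' protocols, RNA was extracted with TRIzol and DNase-treated before TruSeq library preparation. The authors deposited raw counts, one whole number for each Ensembl gene and library. The tools listed in the submitters' processing notes are STAR, featureCounts, Trimmomatic, FastQC and DESeq2, and the build is mm39. Versions, annotation, strand setting and the treatment of reads with several matches were not stated, so near-identical and antisense genes cannot be told apart with certainty.

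Names, types and exon lengths came from GENCODE vM21 (GRCm38), which named 52125 of the 56748 genes; since its build differs, it gave no coordinates of genes, and the promoter coordinates are those of RefSeq's GRCm38.p6 table. Counts were tested with edgeR 4.0.16 in R 4.3.3 (quasi-likelihood test, genotype as the only term, filterByExpr with minimum count 10 and minimum total 15, TMM scaling, Benjamini-Hochberg over all 21952 tested genes, threshold 0.05). SE is that of the log2 fold change, knockout over wild type, and CPM are given as single libraries or mean ± SD with n = 4. Ratios used counts with 0.5 added and a two-sided exact permutation test. Shared sequence is the percentage of a gene's 31-base words found in transcripts of other genes. Alternatives were other scalings and filters, DESeq2 1.42.0, a replicate block and leaving out each library.

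Values are given by library for the testis forms, their partners, Hspa1a, Hspa1b, Hsph1, Dnajb1, and up to 3 called members with the largest rise and fall in each family at a mean CPM of at least 1; of other lists up to 3 called genes each way with the smallest p are named. The members and lists were chosen with earlier results of these data known. Every marker list is reported by its counts.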

Additional observations from a re-analysis of the deposited data

Results flagged for a closer look

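In 176 checks of groups of 4 libraries (79 genes and 9 ratios in both groups), 1 library stood apart in 3, by a gap to its nearest neighbour that took up most of the group's range (Dixon's test at the 95% level); chance flags about 1 in 20 such groups. All 3 were wild-type replicate 2. Dnajb13 stood at 181 CPM there, against 208 to 211 CPM in the other wild-type libraries. Hspb9 stood at 459 CPM, against 529 to 543 CPM. Dnajc8 stood at 77.4 CPM, against 66.9 to 68.1 CPM. Without this library the rises of Dnajb13 and Hspb9 and the fall of Dnajc8 were still called.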

How the results depend on the processing

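Of the 55 called members, 42 kept their call whichever library was left out, and 34 kept it in every alternative. Leaving out 1 library gave 25 to 30 members higher and 20 to 24 lower. Library totals gave 15 higher and 35 lower, with 7 general forms higher and 35 lower in place of 21 and 23, and 38 of the 55 calls were kept. Under them the sign of the log2 fold change turned in 10 members. Of these Cct2 (-0.0087) and Hspa2 (-0.017) had been called higher, Cct3 (-0.13) became called lower, and Cct4, Cct5, Dnaja3, Dnajc7, Dnajc30, Hspa4 and Hspa9 were called in neither. With the counts of Hspa1a and Hspa1b summed, an alternative chosen after seeing the data, the value for Hspa1a reversed to -0.18. The DESeq2 test gave 30 higher and 23 lower, no filter 28 and 23, a minimum count of 50 gave 32 and 23, and DESeq2-type size factors 32 and 23. With the replicate number as a block, 33 members were higher and 25 lower: no call was lost and 3 were gained. Same-numbered libraries deviated together only weakly (correlations from 0.0020 to 0.0798), and 3 of the 4 knockout libraries correlated best with their own number, a hint from the data and not from the design. In all 9 ratios the direction stayed the same without any 1 library and with 5 counts added in place of 0.5. Low counts limit Hspa1a, Hspa1b, Hspb8, Dnajc12 and Dnajc22 most, and Hspb2, with 38 counts in all, could not be tested.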

Other observations

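The gene model Gm12346, with which Hsp90aa1 shares most words, had 8.97, 12.5, 11.0 and 10.1 CPM in knockout, against 10.4, 10.9, 11.3 and 10.9 CPM in wild type, with overlapping groups (log2 fold change -0.023 ± 0.110, adjusted p = 0.875). The pseudogene Hspd1-ps3 had 52 counts over all 8 libraries against 9862 for Hspd1.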
